A study of Mus musculus with 30 samples.

Results

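The 31 genes described here were chosen by name: glucose and lactate transporters, enzymes of glycolysis and gluconeogenesis, regulators of fructose-2,6-bisphosphate, a pyruvate dehydrogenase kinase and genes of the hypoxia response. Earlier results of these data were known when they and the other gene lists were chosen. The share of the 31 called, set beside that of all genes, is therefore descriptive and does not test these pathways. All 31 had a row in the count table of 33924 genes, and all 31 passed the filter on low counts that left 19016 genes for testing. RNA-seq counts came from mouse thyroid in 10 groups. Untreated groups were wild type and Arid1a knockout (Arid1a KO), with 3 libraries each. The other 8 groups carried Braf V600E, an activating mutation of the kinase Braf, alone or together with Arid1a KO, Arid2 KO or Smarcb1 KO, and received either vehicle or CH5126766 (CKI), an inhibitor of MEK. The 3 deleted genes code for parts of SWI/SNF, a complex that moves nucleosomes. Dosing lasted 8 days and ended about 2 h before killing. Each Braf group held 3 libraries, except both Braf Arid2 knockout groups, which held 2. Sequencing depth was 23879271 to 34400066 counts per library.

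The labels give no strain, age or driver of the alleles. They attach 2 preparations to all samples: frozen whole thyroids for wild-type, Arid2 and Smarcb1 mice, and RNA from sorted YFP-positive cells. Where both hold, genotype and preparation cannot be told apart in the comparisons of Braf with wild type, with Arid2 loss and with Smarcb1 loss, in that of Arid1a KO with wild type, or in the differences of drug response between Braf and the Arid2 or Smarcb1 knockout. Replicate numbers came from the sample titles, and no label says whether the libraries of a group came from different mice, so the p-values reflect library-to-library spread, which may be technical. Within groups, 26 pairs of libraries differed by 79.4 to 363 times the chi-square per degree of freedom that sampling noise gives, and summed fibroblast markers ran from 1129 to 24165 CPM in Braf vehicle alone. Follicular cell markers (10 genes, Tg among them) summed to 63769 to 162380 CPM (counts scaled to a common library total) in wild type, to 627 to 1318 CPM in Braf vehicle and to 163 to 251 CPM in Braf Smarcb1 knockout vehicle, with 1 of the 10 at 0 counts in 3 of the 28 libraries. The targeted gene Smarcb1 was at 2.28 to 17.9 CPM in vehicle and 11.9 to 47.4 CPM in CKI libraries of its knockout. Braf vehicle had 56.97 to 131 CPM. It was also at 15.1 to 62.5 CPM in the libraries labelled Arid1a KO, against 74.8 to 152 CPM in wild type. Counts over whole genes include reads outside a deleted part, so those of Arid1a (for example 11.98 to 15.9 CPM in Braf Arid1a knockout vehicle and 11.6 to 30.9 CPM in Braf vehicle) and Arid2 (15.5 to 37.5 CPM in Braf Arid2 knockout vehicle and 7.03 to 19.7 CPM in Braf vehicle) do not check the labels. Of 8 transcripts known to follow MAPK signalling, 2 rose and 1 fell with CKI in Braf (mean log2 level 5.85 with vehicle and 5.96 with CKI). Of the same 8, 3 fell in Braf Arid1a knockout and 4 in Braf Smarcb1 knockout. In Braf Arid2 knockout their mean log2 level was 6.75 with vehicle and 5.47 with CKI, without a call by edgeR for a single gene.

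Glycolysis breaks glucose down to pyruvate, which is either reduced to lactate and exported or taken into mitochondria and oxidised through pyruvate dehydrogenase. When oxygen is low, hypoxia-inducible factors bind short motifs in promoters and enhancers and raise transcription of many of these genes, and Myc and growth factor signalling act on the same set. In the thyroid, glucose uptake is known to be low in differentiated follicular cells and high in aggressive tumours, and Slc2a1 is the transporter most often linked with it.

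The promoters of 5 genes around which the results turn are shown first, as 300 bases that run 5′ to 3′ on the gene's strand, 250 before and 50 after the transcription start. They come from RefSeq on build GRCm38.p6, not from the build of the count table (mm9). Capitals mark ACGTG or GCGTG on either strand, the core letters of a hypoxia response element. Slc2a1 (chr4:119108495-119108794, plus strand), Slc16a3 (chr11:120948817-120949116, plus strand) and Car9 (chr4:43506776-43507075, plus strand) are shown as genes that rose with Braf, and Fbp1 (chr13:62888233-62888532, minus strand) and Fbp2 (chr13:62858351-62858650, minus strand) as neighbouring genes, with 0 protein-coding genes between them, whose levels differed most between groups.
Slc2a1: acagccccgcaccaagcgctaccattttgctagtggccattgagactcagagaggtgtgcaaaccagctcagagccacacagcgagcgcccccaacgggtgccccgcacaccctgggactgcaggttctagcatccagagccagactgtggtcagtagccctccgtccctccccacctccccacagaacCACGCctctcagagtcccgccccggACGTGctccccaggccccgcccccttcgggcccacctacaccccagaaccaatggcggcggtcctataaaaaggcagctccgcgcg
Slc16a3: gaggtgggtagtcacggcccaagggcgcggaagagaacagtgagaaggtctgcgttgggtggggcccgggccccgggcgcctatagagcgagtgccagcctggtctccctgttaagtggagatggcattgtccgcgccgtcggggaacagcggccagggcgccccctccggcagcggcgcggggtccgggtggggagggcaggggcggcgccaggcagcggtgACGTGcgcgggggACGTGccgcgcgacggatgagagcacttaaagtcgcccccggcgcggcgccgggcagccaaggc
Car9: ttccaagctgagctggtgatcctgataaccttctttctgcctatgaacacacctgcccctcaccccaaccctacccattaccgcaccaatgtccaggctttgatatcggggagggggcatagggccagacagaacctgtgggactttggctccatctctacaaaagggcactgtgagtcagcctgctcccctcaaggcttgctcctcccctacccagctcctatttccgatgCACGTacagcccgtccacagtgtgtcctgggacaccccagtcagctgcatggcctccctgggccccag
Fbp1: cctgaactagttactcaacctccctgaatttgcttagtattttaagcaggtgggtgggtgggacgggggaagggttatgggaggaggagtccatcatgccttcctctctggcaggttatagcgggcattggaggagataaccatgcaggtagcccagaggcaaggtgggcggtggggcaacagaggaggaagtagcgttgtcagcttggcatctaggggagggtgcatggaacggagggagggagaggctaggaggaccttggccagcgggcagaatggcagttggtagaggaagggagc
Fbp2: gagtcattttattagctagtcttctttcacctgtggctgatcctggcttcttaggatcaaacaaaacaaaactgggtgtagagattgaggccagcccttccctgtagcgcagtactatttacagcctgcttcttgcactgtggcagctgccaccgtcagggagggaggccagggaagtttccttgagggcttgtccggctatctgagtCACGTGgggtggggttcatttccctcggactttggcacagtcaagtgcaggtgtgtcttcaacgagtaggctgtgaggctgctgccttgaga

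The window of Slc16a3 held 2 copies of ACGTG, those of Slc2a1 and Car9 1 copy each, and that of Slc2a1 also held 1 copy of GCGTG. In the Fbp2 window the copy lies in the palindrome CACGTG (the E-box), which reads ACGTG on both strands and so counts as 2 copies. The Fbp1 window held neither motif, which says only that these letters are not in those 300 bases. Windows were found for 29 of the 31 genes, 42 windows in all, but not for Slc2a3 and Ndrg1, with Pkm2 listed under its current symbol Pkm. ACGTG was in 22 of the 42 windows (52.38%) and in 19.62% of all 32851 windows of the same length, and GCGTG was in 52.38% and 32.39%. CACGTG was in 14.29% and 7.15%. Windows of 1 gene can overlap, base composition was not matched, and a match is not a binding site.

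Levels are given as CPM after TMM scaling. Differences are log2 fold changes (written log2 change) with the standard error, SE. Their p-values come from edgeR's quasi-likelihood test, adjusted by Benjamini-Hochberg over all genes tested. A gene is said to rise or fall where that p was under 0.05. The table holds rows of near-identical copies (Ldha, Pgk1, Pgam1, Tpi1 and Aldoa pseudogenes or retrocopies), so counts of these genes, of Gapdh and of Eno1 are uncertain to the extent that reads were shared among copies. In bulk RNA, fewer cells of a type and less RNA per cell cannot be told apart.

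**Figure D1:**
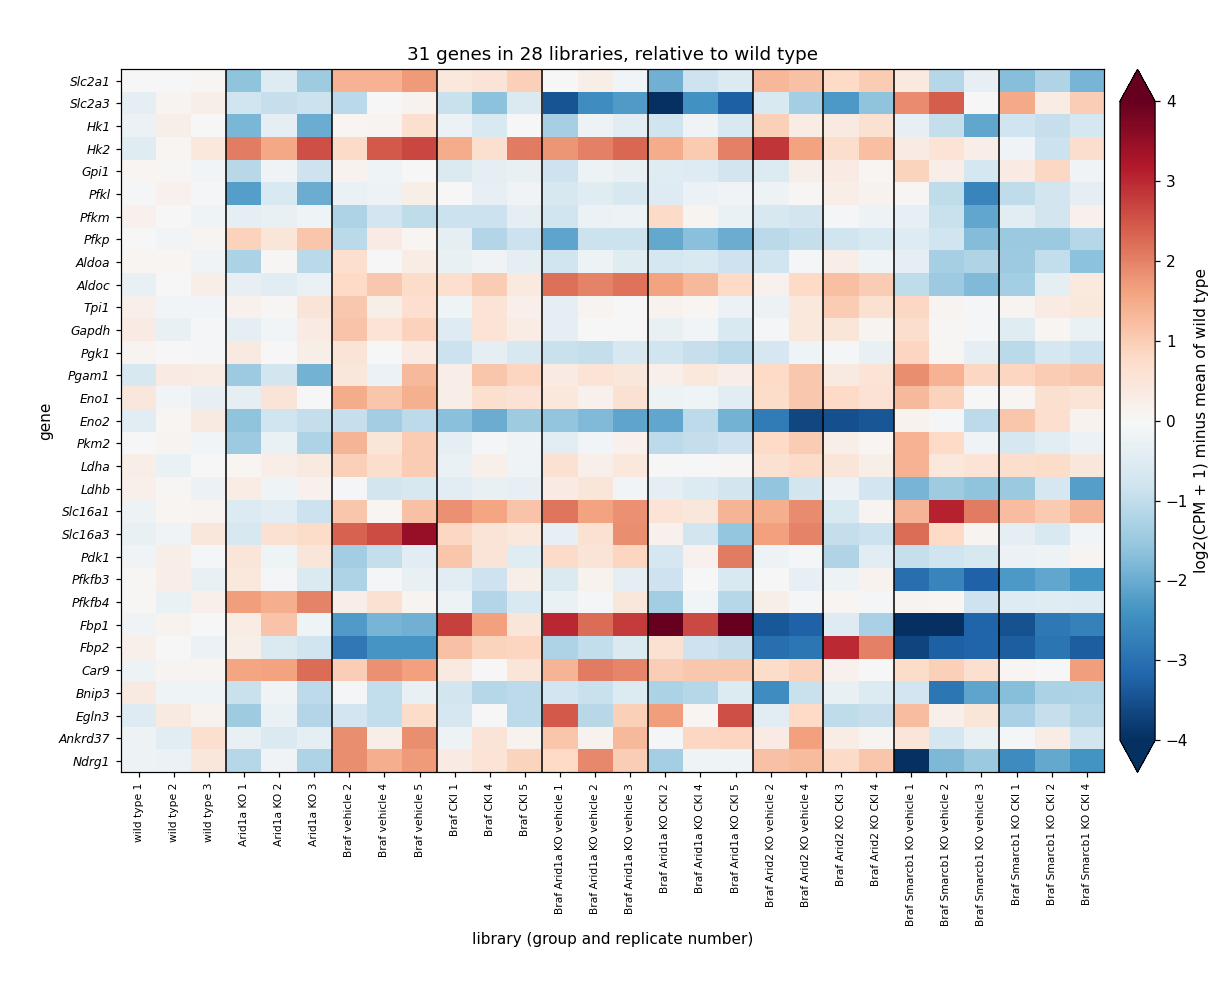
Heat map of the 31 genes (rows) in the 28 libraries (columns, by group and replicate number). Colour is log2(CPM + 1) minus the wild-type mean, and arrows on the colour bar mark values beyond its ends. Fbp1 and Fbp2 span the widest range of colours, from dark blue in Braf Smarcb1 knockout to dark red in Braf Arid1a knockout CKI (Fbp1, 317 to 2591 CPM) and Braf Arid2 knockout CKI (Fbp2, 64.7 to 127 CPM).

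Braf thyroids given vehicle were set against wild type that received nothing, so the mutation and dosing cannot be told apart. Of the 31 genes, 10 rose (Slc2a1, Slc16a3, Ldha, 4 of 15 glycolytic enzymes and 3 of 5 hypoxia-response genes) and 3 fell (Fbp2, Eno2 and Pfkm), so that 41.9% were called, against 20.0% of all genes, with a median log2 fold change of 0.35 over the 31 and of -0.03 over all genes.

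Slc2a1, which encodes the glucose transporter GLUT1, stood at 214, 214 and 222 CPM in the wild-type libraries and at 571, 570.4 and 710.4 CPM in the Braf vehicle libraries. The groups did not overlap, and the wild-type libraries lay close together (log2 change 1.51 with SE 0.35, adjusted p = 0.00410). Hk2, the hexokinase that traps glucose as its phosphate in many tumours, measured 2.13, 3.60 and 4.90 CPM in wild type and 6.52, 22.9 and 27.2 CPM in Braf vehicle. All 3 Braf libraries were above wild type, although replicate 2 was close to it (log2 change 2.41 with SE 0.56, adjusted p = 0.00375). Among the later glycolytic enzymes, the enolase Eno1 went from 536, 364 and 311 CPM to 1107, 849 and 1052 CPM (log2 change 1.31 with SE 0.29, adjusted p = 0.00271). Pkm2, the table's older symbol for the pyruvate kinase gene Pkm with all its isoforms, went from 1198, 1312 and 1137 CPM to 3103, 1685 and 2473 CPM (log2 change 0.99 with SE 0.32, adjusted p = 0.0321). Neither gene's groups overlapped. Gapdh, glyceraldehyde-3-phosphate dehydrogenase, was at 724, 465 and 556 CPM in wild type and 1252, 844 and 1090.0 CPM in Braf vehicle (log2 change 0.87 with SE 0.29, adjusted p = 0.0385). Its Braf libraries were all higher, the lowest by a margin smaller than the spread within wild type. In the other direction, Eno2, the neuronal enolase, was at 20.4, 30.1 and 36.7 CPM in wild type and 14.5, 10.3 and 13.1 CPM in Braf vehicle (log2 change -1.21 with SE 0.39, adjusted p = 0.0320). Pfkm, the muscle phosphofructokinase, was at 78.000, 68.03 and 61.2 CPM and 28.5, 40.4 and 33.5 CPM (log2 change -1.02 with SE 0.34, adjusted p = 0.0383). For these genes every Braf library was below every wild-type library.

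Ldha, the lactate dehydrogenase subunit linked with lactate production, read 1287, 895 and 1068 CPM in wild type and 2054, 1744 and 2151 CPM in Braf vehicle. No wild-type library reached a Braf one (log2 change 0.87 with SE 0.23, adjusted p = 0.0106). Within each library the count ratio of Ldha to Ldhb, the subunit favoured where lactate is oxidised, was 2.37 to 3.46 in wild type and 5.96 to 9.10 in Braf vehicle. This ratio is of counts not scaled by gene length, so only its difference between libraries can be read. Slc16a3, the lactate exporter MCT4, stood at 2.16, 2.54 and 4.35 CPM in wild type and 19.2, 22.7 and 43.2 CPM in Braf vehicle (log2 change 3.23 with SE 0.73, adjusted p = 0.00341). Its groups were well apart, with replicate 5 highest.

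Of the hypoxia-response genes, Car9, a carbonic anhydrase at the cell surface that handles acid, was at 0.209, 0.515 and 0.512 CPM in wild type and 1.78, 4.02 and 3.34 CPM in Braf vehicle (log2 change 2.88 with SE 0.65, adjusted p = 0.00335). These are low levels, yet the groups did not overlap. Ndrg1, a stress and differentiation gene, was at 122, 119.6 and 195 CPM and 515, 389.9 and 466 CPM (log2 change 1.65 with SE 0.47, adjusted p = 0.0159), again without overlap. Ankrd37 read 2.69, 2.21 and 5.66 CPM in wild type and 14.5, 4.16 and 14.5 CPM in Braf vehicle (log2 change 1.65 with SE 0.56, adjusted p = 0.0399), and here replicate 4 of Braf lay within the wild-type range. Fbp2, a fructose-1,6-bisphosphatase known from muscle that runs the phosphofructokinase step in reverse, was at 17.9, 15.3 and 12.9 CPM in wild type and 1.22, 2.13 and 2.16 CPM in Braf vehicle. The fall was seen in 3 of 3 libraries (log2 change -3.05 with SE 0.47, adjusted p = 8.08e-05). Its liver and kidney relative Fbp1 was at 45.5, 55.4 and 49.3 CPM in wild type and 9.68, 12.9 and 12.4 CPM in Braf vehicle and did not pass the test (log2 change -2.10 with SE 0.81, adjusted p = 0.0693), although its groups did not overlap.

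**Figure D2:**
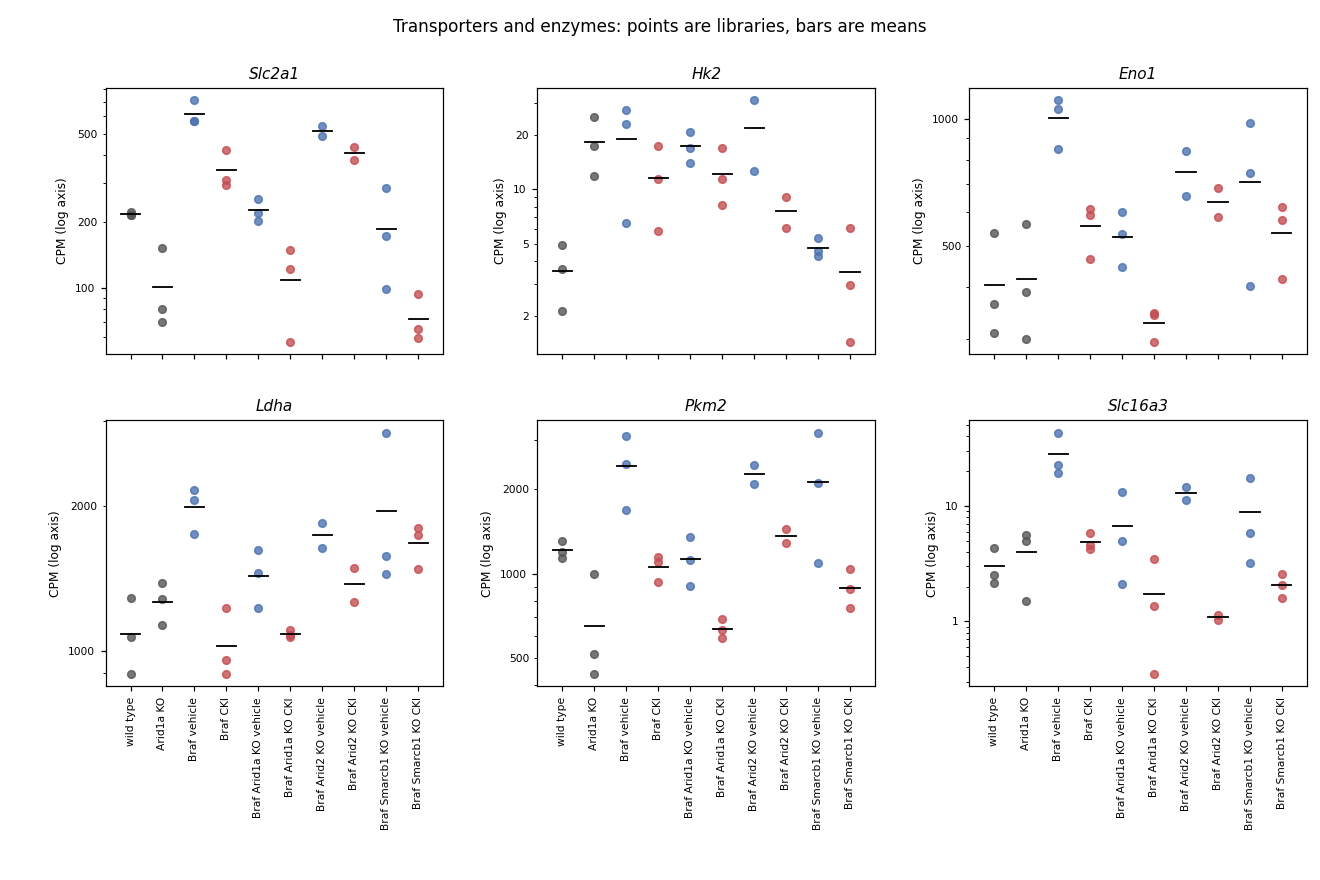
Slc2a1, Hk2, Eno1, Ldha, Pkm2 and Slc16a3 in CPM (log axis) for the 10 groups, with grey points for untreated, blue for vehicle and red for CKI libraries and bars for group means. Slc16a3 libraries of Braf vehicle (19.2 to 43.2 CPM) lie above those of wild type (2.16 to 4.35 CPM) and of Braf CKI (4.20 to 5.87 CPM).

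Genes beyond the 31 gave a mixed picture in the same comparison, to be read beside the 20.0% of all genes called. Of 21 other hypoxia targets 6 rose and 1 fell, with a median log2 fold change of 0.56. The collagen cross-linking enzyme Lox went from a mean of 2.25 to 22.3 CPM (log2 change 3.31, adjusted p = 0.00657) and the transcription factor Bhlhe40 from a mean of 318 to 1383 CPM (log2 change 2.12, adjusted p = 0.000425). The secreted glycoprotein Stc2 went the other way, from a mean of 19.7 to 3.13 CPM (log2 change -2.65, adjusted p = 0.000136). Of 9 hypoxia factors and regulators 3 fell: the factors Epas1, from a mean of 148 to 46.8 CPM (log2 change -1.66, adjusted p = 0.0439), and Hif1a, from a mean of 155 to 59.5 CPM (log2 change -1.38, adjusted p = 0.0262), and the prolyl hydroxylase Egln1, from a mean of 33.6 to 14.4 CPM (log2 change -1.22, adjusted p = 0.00459). In the list of gluconeogenesis and glycogen 3 of 14 tested genes fell, and the largest change was in the glycogen phosphorylase Pygm, from a mean of 402 to 8.75 CPM (log2 change -5.51, adjusted p = 3.53e-06), followed by the pyruvate carboxylase Pcx, from a mean of 100.1 to 33.6 CPM (log2 change -1.58, adjusted p = 0.0184). Pygb, another glycogen phosphorylase, fell from a mean of 172 to 73.4 CPM (log2 change -1.23, adjusted p = 0.0155). Of 8 pentose phosphate genes the dehydrogenase H6pd rose, from a mean of 46.7 to 211 CPM (log2 change 2.18, adjusted p = 0.00186). Of 12 genes for pyruvate entry to mitochondria the phosphatase Pdp2 fell, from a mean of 16.4 to 2.16 CPM (log2 change -2.91, adjusted p = 0.00159), as did the kinase Pdk2, from a mean of 162 to 52.1 CPM (log2 change -1.63, adjusted p = 0.00315). Among 14 tested other glycolytic isozymes and glucose transporters, the hexokinase-like gene Hkdc1 had 1 count over the wild-type libraries and 92 over Braf vehicle, a ratio of 110 with a 95% counting interval of 19.3 to 4400.1 that covers counting error only.

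Other cell types moved too. Parathyroid markers summed to 4214 to 14843 CPM in wild type and to 32.8 to 60.2 CPM in Braf vehicle, where 4 of 4 fell, and C cell markers to 8416 to 32724 and 25.1 to 137 CPM, where 5 of 6 fell and 1 rose. Of 10 follicular markers 9 fell. Leukocyte markers (Ptprc and 6 others, none at 0 counts in any library) summed to 349 to 582 CPM in wild type and 773 to 1389 CPM in Braf vehicle, and 3 of 7 rose. Of 10 fibroblast markers 7 rose, with summed levels of 816 to 1529.7 CPM in wild type and 1129 to 24165 CPM in Braf vehicle. Of 10 endothelial markers 10 fell, with summed levels of 2132 to 3265 and 40.1 to 759.8 CPM. The part of these cells was not tested. Leukocyte levels (mean log2) were 4.73 to 5.89 in wild type and 6.40 to 7.26 in Braf vehicle. Without overlap, a fit with this level as covariate cannot separate leukocytes from genotype, from dosing or from preparation, which may go with genotype here. The same lack of overlap held for each pair of groups below where a log2 change with this covariate is given. In a fit with the leukocyte level as covariate 8 of the 13 calls remained, among them Slc2a1 (1.93 with adjusted p = 0.00223) but not Slc16a3 (2.43 with adjusted p = 0.0566) or Ndrg1 (1.45 with adjusted p = 0.0873). With 1 library left out, the number of the 31 genes called was 6 without wild-type library 2, 8 without Braf vehicle library 2 or 5, 9 without wild-type library 1 or 3 and 14 without Braf vehicle library 4. Slc2a1, Hk2, Eno1, Slc16a3, Fbp2 and Car9 passed in all 6 of these fits, and the other 7 were lost in 1 or more.

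In Braf thyroids CKI lowered Ldha, the lactate exporter Slc16a3, Car9 and 2 of 15 glycolytic enzymes, Pgk1 and Pkm2, and raised Pdk1 and both fructose bisphosphatases. Of the 31 genes, 3 rose and 5 fell (25.8% called, against 13.0% of all genes), and the median log2 fold change was -0.62 against -0.01 over all genes. The Braf vehicle libraries are the same as those above, so the comparisons share them and are not independent.

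Slc16a3 stood at 19.2, 22.7 and 43.2 CPM with vehicle and 5.87, 4.55 and 4.20 CPM with CKI. All CKI libraries were far below the lowest vehicle library (log2 change -2.54 with SE 0.71, adjusted p = 0.0241). Ldha was at 2054, 1744 and 2151 CPM with vehicle and 894, 1225 and 956 CPM with CKI, without overlap (log2 change -0.95 with SE 0.23, adjusted p = 0.0131). The Ldha to Ldhb count ratio was 5.96 to 9.10 with vehicle and 3.27 to 4.09 with CKI. Pkm2 went from 3103, 1685 and 2473 CPM to 937, 1144 and 1104 CPM (log2 change -1.19 with SE 0.32, adjusted p = 0.0213), and vehicle replicate 4 was nearest to the CKI values. The phosphoglycerate kinase Pgk1, an enzyme that makes ATP in glycolysis, was at 134, 92.02 and 117 CPM with vehicle and 51.1, 70.3 and 58.7 CPM with CKI (log2 change -0.93 with SE 0.25, adjusted p = 0.0214). Its groups also did not overlap. Car9 was at 1.78, 4.02 and 3.34 CPM with vehicle and 0.811, 0.421 and 0.964 CPM with CKI (log2 change -2.05 with SE 0.63, adjusted p = 0.0352), where the highest CKI library was still below the lowest vehicle library.

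Fbp2 showed the smallest p of the set: it stood at 1.22, 2.13 and 2.16 CPM with vehicle and 35.3, 28.99 and 28.7 CPM with CKI. The CKI libraries were close together and above all wild-type libraries (12.9 to 17.9 CPM), and the rise was large against its error (log2 change 4.07 with SE 0.49, adjusted p = 4.64e-05). Fbp1 was at 9.68, 12.9 and 12.4 CPM with vehicle and 336, 159 and 70.8 CPM with CKI (log2 change 4.01 with SE 0.87, adjusted p = 0.00760). The 3 CKI libraries differed among themselves by several fold but all exceeded vehicle. Pdk1, a kinase that inhibits pyruvate dehydrogenase, was at 3.01, 4.41 and 6.68 CPM with vehicle and 21.5, 14.1 and 6.47 CPM with CKI (log2 change 1.58 with SE 0.52, adjusted p = 0.0495), and here CKI replicate 5 lay below vehicle replicate 5. Over 13 alternative fits, with other settings or 1 library left out, the Pdk1 call was kept in 3 and lost in 10. Among the fits that lost it were those with RLE size factors and with no filter on low counts. Skeletal muscle markers, of interest because Fbp2 is known as the muscle form, summed to 19.9 to 87.4 CPM with vehicle and 21.9 to 47.8 CPM with CKI, and with their level as covariate the Fbp2 log2 fold change was 4.04 with adjusted p = 8.77e-05.

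Slc2a1, Hk2 and Gapdh did not pass the test in Braf. Slc2a1 was at 571, 570.4 and 710.4 CPM with vehicle and 293, 309.8 and 422 CPM with CKI, lower in 3 of 3 libraries (log2 change -0.85 with SE 0.35, adjusted p = 0.105). Hk2, at 11.3, 5.90 and 17.4 CPM with CKI, overlapped vehicle (log2 change -0.71 with SE 0.53, adjusted p = 0.397). Gapdh, at 399.6, 845 and 709 CPM with CKI, had 1 library above the lowest of vehicle (log2 change -0.71 with SE 0.29, adjusted p = 0.110).

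**Figure D3:**
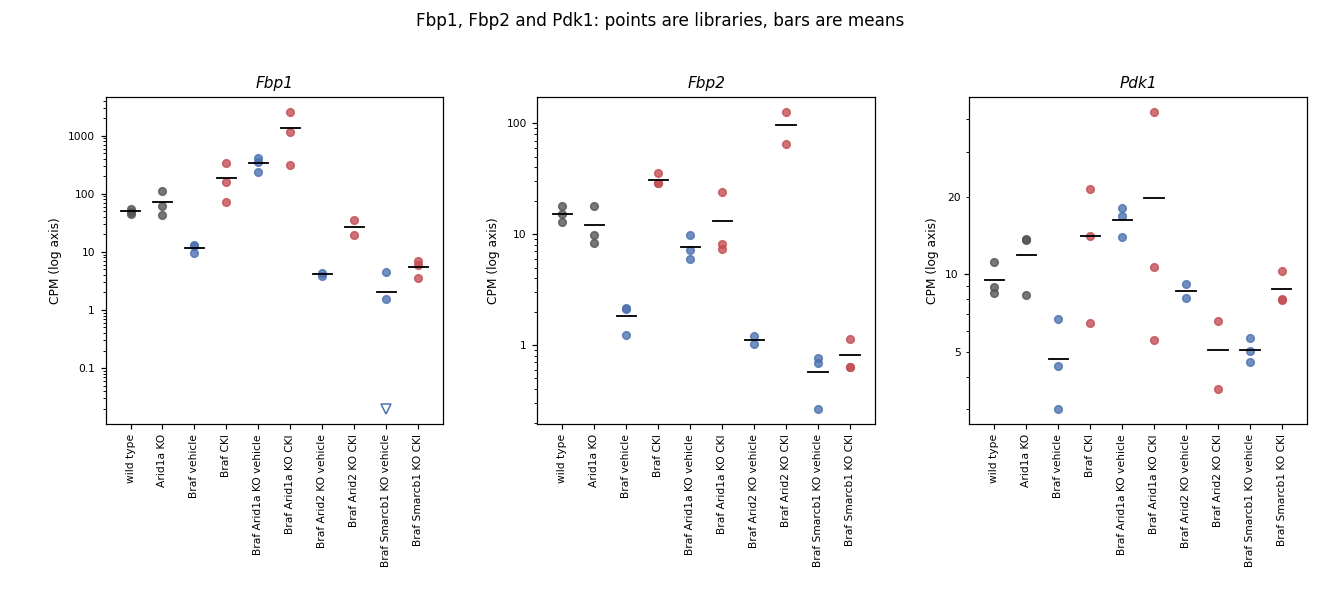
Fbp1, Fbp2 and Pdk1 in CPM (log axis) by group, points as libraries and bars as means. The open triangle is a Fbp1 library with 0 counts, drawn at the foot of the axis. Fbp2 is at 28.7 to 35.3 CPM in Braf CKI and 64.7 to 127 CPM in Braf Arid2 knockout CKI, but at 0.639 to 1.14 CPM in Braf Smarcb1 knockout CKI.

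Outside the 31 genes, CKI in Braf raised Hif1a from a mean of 59.5 to 211 CPM (log2 change 1.83, adjusted p = 0.0114) and Vhl, the ligase subunit that targets it, from a mean of 14.1 to 33.98 CPM (log2 change 1.27, adjusted p = 0.0470), 2 of the 9 hypoxia factors and regulators. Counts in these lists are to be read beside the 13.0% of all genes called in this comparison. Of 21 other hypoxia targets 3 rose and 2 fell, including the angiogenic factor Vegfa, from a mean of 40.3 to 156 CPM (log2 change 1.95, adjusted p = 0.0130), Stc2, from a mean of 3.13 to 12.01 CPM (log2 change 1.94, adjusted p = 0.00729), and the lysyl hydroxylase Plod2, from a mean of 27.8 to 66.1 CPM (log2 change 1.25, adjusted p = 0.0179). Of 12 genes for pyruvate entry to mitochondria Pdk2, from a mean of 52.1 to 201 CPM (log2 change 1.95, adjusted p = 0.00350), and Pdp2, from a mean of 2.16 to 7.37 CPM (log2 change 1.76, adjusted p = 0.0495), rose. Among 8 glucose-sensing and Myc factors 3 rose and 1 fell, led by Mycn, from a mean of 2.12 to 17.8 CPM (log2 change 3.07, adjusted p = 0.0118), the arrestin Arrdc4, from a mean of 10.6 to 37.5 CPM (log2 change 1.82, adjusted p = 0.0305), and Myc, from a mean of 134 to 352 CPM (log2 change 1.39, adjusted p = 0.0448). In each of 3 further lists 1 gene passed: the glucose transporter Slc2a8 rose from a mean of 4.68 to 23.7 CPM (log2 change 2.34, adjusted p = 0.0227), the pentose phosphate lactonase Pgls rose from a mean of 5.74 to 36.6 CPM (log2 change 2.67, adjusted p = 0.0233), and glycogenin, Gyg, fell from a mean of 50.8 to 27.9 CPM (log2 change -0.87, adjusted p = 0.0148).

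Leukocyte markers fell in 7 of 7 with CKI in Braf, from 773 to 1389 CPM to 153 to 293 CPM as ranges of the summed level, while follicular markers rose in 9 of 10, from 627 to 1318 CPM to 10309.6 to 23232 CPM. With the leukocyte level as covariate 2 of the 31 genes passed, Fbp1 (4.96 with adjusted p = 0.0471) and Fbp2 (5.14 with adjusted p = 0.000171). The log2 fold change of Ldha was then -1.33 with adjusted p = 0.0793 and that of Slc16a3 -1.20 with adjusted p = 0.658. As the leukocyte levels did not overlap, this fit cannot separate leukocytes from drug. With 1 library left out, the number called was 2 without CKI library 1, 3 without vehicle library 2, 4 without CKI library 4, 5 without CKI library 5 and 7 without vehicle library 4 or 5, with Fbp1 and Fbp2 called each time and Car9 never.

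CKI in Braf with Arid1a knockout changed 1 of the 31 genes (3.23%, against 4.51% of all genes), with a median log2 fold change of -0.24 against 0.03. Ndrg1 was at 249.7, 541 and 280.1 CPM with vehicle and 54.9, 126 and 126 CPM with CKI. The fall was seen in 3 of 3 libraries (log2 change -1.80 with SE 0.47, adjusted p = 0.0316). Slc2a1 was lower in all 3 as well, at 219, 253 and 201 CPM and 56.99, 122 and 148 CPM, and did not pass (log2 change -1.04 with SE 0.35, adjusted p = 0.0883). Ldha stood at 1619, 1228 and 1450.0 CPM and 1068, 1079 and 1103 CPM (log2 change -0.40 with SE 0.23, adjusted p = 0.332). For Hk2 the values were 13.9, 16.9 and 20.7 CPM with vehicle and 11.4, 8.11 and 16.9 CPM with CKI (log2 change -0.50 with SE 0.53, adjusted p = 0.631), and for Gapdh 448, 566 and 569 CPM and 466, 526 and 373 CPM (log2 change -0.21 with SE 0.29, adjusted p = 0.726). Both overlapped. Fbp1 was high in both arms, at 414, 241 and 355 CPM with vehicle and 2591, 317 and 1153 CPM with CKI. CKI replicate 2 held the highest Fbp1 of all 28 libraries, and the difference did not pass (log2 change 2.01 with SE 0.80, adjusted p = 0.152). Fbp2 went from 5.96, 7.25 and 9.76 CPM to 23.9, 8.19 and 7.41 CPM, overlapping, and did not pass either (log2 change 0.78 with SE 0.43, adjusted p = 0.305). The number called with 1 library left out was 0 without vehicle library 2 or 3 or CKI library 2 or 5, 1 without vehicle library 1 and 2 without CKI library 4. Follicular markers rose in 9 of 10, with summed levels of 759 to 1921 CPM with vehicle and 23992 to 36376 CPM with CKI, and their part was not tested. Leukocyte markers summed to 428 to 969 CPM with vehicle and 146 to 393 CPM with CKI, and the Ndrg1 log2 fold change was -1.50 with adjusted p = 0.265 with their level as covariate.

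In Braf with Arid2 knockout, where each arm had 2 libraries, both lactate transporters fell with CKI and Fbp2 rose (9.68% called, against 3.37% of all genes). The median log2 fold change was -0.17 over the 31 genes and -0.03 over all genes. Slc16a1, the transporter MCT1 that carries lactate in either direction, was at 60.03 and 80.8 CPM with vehicle and 13.3 and 22.7 CPM with CKI. Both CKI libraries were well below vehicle (log2 change -1.97 with SE 0.46, adjusted p = 0.0223). Slc16a3 was at 11.3 and 14.5 CPM and 1.02 and 1.14 CPM (log2 change -3.57 with SE 0.93, adjusted p = 0.0356), again with both CKI libraries far below vehicle. Fbp2 went from 1.02 and 1.19 CPM to 127 and 64.7 CPM, the highest Fbp2 levels in the series (log2 change 6.43 with SE 0.66, adjusted p = 1.54e-05). Skeletal muscle markers summed to 22.3 to 82.04 CPM with vehicle and 19.2 to 128 CPM with CKI, and with that level as covariate the Fbp2 log2 fold change was 6.50 with adjusted p = 3.11e-05. Follicular markers rose in 7 of 10 at the same time, from summed levels of 867 to 1152 CPM with vehicle to 40438 to 65986 CPM with CKI, and their part in the Fbp2 rise was not tested. Fbp1 moved from 3.86 and 4.35 CPM to 34.8 and 19.7 CPM and did not pass (log2 change 2.73 with SE 1.02, adjusted p = 0.133).

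Slc2a1 in Braf Arid2 knockout read 542 and 487 CPM with vehicle and 379 and 435 CPM with CKI (log2 change -0.34 with SE 0.42, adjusted p = 0.693). Ldha read 1632 and 1842 CPM and 1487 and 1259.9 CPM (log2 change -0.34 with SE 0.28, adjusted p = 0.519). Both were lower in 2 of 2 CKI libraries by amounts that did not pass. Hk2 was at 30.98 and 12.5 CPM and 6.10 and 9.08 CPM (log2 change -1.52 with SE 0.66, adjusted p = 0.192), and Gapdh at 538 and 770.3 CPM and 798 and 612 CPM (log2 change 0.11 with SE 0.35, adjusted p = 0.912). Leaving out 1 library, so that an arm held 1 library assumed to vary like the other groups, Fbp2 alone passed in 4 of 4 fits, and both transporters were lost each time. Leukocyte markers summed to 514 to 556 CPM with vehicle and 150.1 to 157 CPM with CKI. With their level as covariate the log2 fold change of Slc16a1 was -2.40 with adjusted p = 0.0267 and that of Slc16a3 -2.47 with adjusted p = 0.212.

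In Braf with Smarcb1 knockout CKI lowered Slc2a1, Pgk1 and Pkm2 (9.68% of the 31 called, against 3.85% of all genes), with a median of -0.22 over the 31 and 0.03 over all genes. Slc2a1 was at 284, 98.5 and 172 CPM with vehicle and 65.3, 93.5 and 59.3 CPM with CKI. Vehicle replicate 2 lay just above the highest CKI library, and the groups did not overlap (log2 change -1.35 with SE 0.35, adjusted p = 0.0319). Pgk1 went from 170.3, 95.7 and 71.8 CPM to 42.95, 56.9 and 50.4 CPM (log2 change -1.17 with SE 0.25, adjusted p = 0.0117). Pkm2 went from 3191, 2100.1 and 1094 CPM to 758, 879 and 1040.2 CPM (log2 change -1.25 with SE 0.32, adjusted p = 0.0304). In all 3 genes vehicle replicate 1 was the highest library. Ldha overlapped, at 2836, 1443 and 1575 CPM and 1737, 1794 and 1480.4 CPM (log2 change -0.22 with SE 0.23, adjusted p = 0.664). So did Hk2, at 4.54, 5.36 and 4.29 CPM and 2.96, 1.43 and 6.08 CPM (log2 change -0.44 with SE 0.53, adjusted p = 0.725), and Gapdh, at 936, 588 and 545 CPM and 406, 602 and 474 CPM (log2 change -0.48 with SE 0.29, adjusted p = 0.406). The number called with 1 library left out was 1 without vehicle library 1 or CKI library 1 or 4, 2 without vehicle library 2 or CKI library 2 and 3 without vehicle library 3. No call of the 3 remained when only these 2 groups were fitted, where 2 genes of all those tested passed. Cycling-cell markers summed to 345 to 1082 CPM with vehicle and 75.8 to 200.1 CPM with CKI, and 3 of 10 fell. Follicular markers rose in 6 of 10, with summed levels of 163 to 251 CPM with vehicle and 1672 to 2638 CPM with CKI. The part of either in these falls was not tested.

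**Figure D4:**
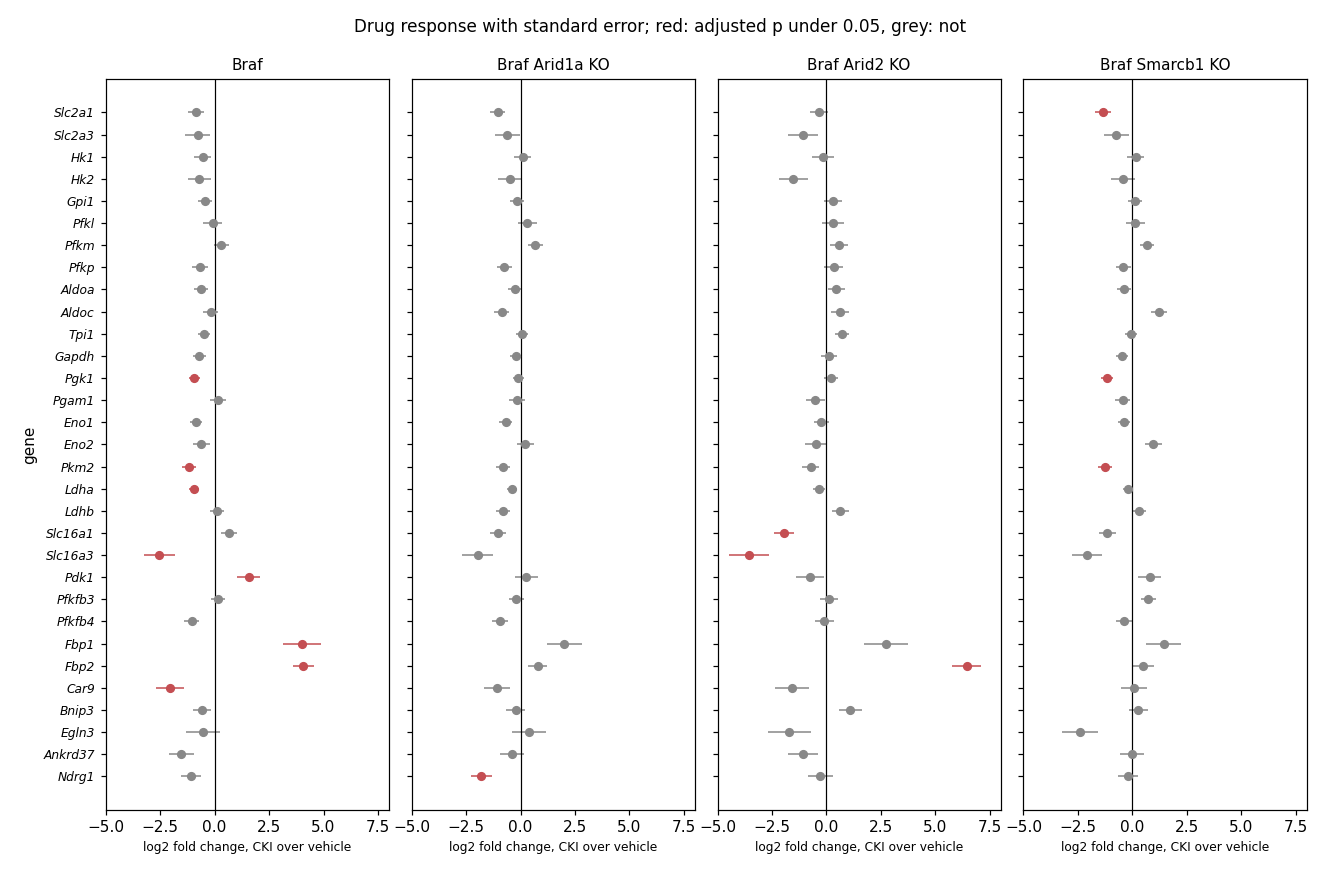
Log2 fold change of CKI over vehicle with its standard error for the 31 genes in the 4 Braf genotypes, red where the adjusted p is under 0.05 and grey otherwise. Fbp2 stands at 4.07 in Braf and 6.43 with Arid2 knockout, against 0.50 with Smarcb1 knockout. Slc16a3 lies left of 0 in all 4 panels, from -3.57 to -1.97.

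Some genes outside the 31 rose with CKI in several genotypes, each of which has its own vehicle group. Of all genes, 4.51% were called with Arid1a, 3.37% with Arid2 and 3.85% with Smarcb1 knockout. Stc2 went from a mean of 1.49 to 11.2 CPM (log2 change 2.90, adjusted p = 0.000786) with Arid1a knockout, from a mean of 0.680 to 15.6 CPM (log2 change 4.51, adjusted p = 0.000189) with Arid2 knockout and from a mean of 1.35 to 6.47 CPM (log2 change 2.25, adjusted p = 0.00482) with Smarcb1 knockout. Pdk2 rose from a mean of 69.5 to 168 CPM (log2 change 1.27, adjusted p = 0.0462) with Arid1a knockout and from a mean of 22.7 to 105 CPM (log2 change 2.22, adjusted p = 0.00206) with Smarcb1 knockout. Pdp2 rose from a mean of 3.13 to 13.05 CPM (log2 change 2.06, adjusted p = 0.0451) and from a mean of 2.003 to 18.2 CPM (log2 change 3.18, adjusted p = 0.0223) with Arid1a and Arid2 knockout. Of 9 hypoxia factors and regulators 2 rose in Braf Arid1a knockout, the factor Arnt2, from a mean of 1.58 to 8.23 CPM (log2 change 2.38, adjusted p = 0.0232), and Hif1a, from a mean of 49.9 to 201 CPM (log2 change 2.01, adjusted p = 0.0117). Of 21 other hypoxia targets 2 rose and 2 fell there, among them the heme oxygenase Hmox1, from a mean of 494 to 137 CPM (log2 change -1.85, adjusted p = 0.0234), and Vegfa, from a mean of 42.1 to 135 CPM (log2 change 1.67, adjusted p = 0.0430). In the Smarcb1 knockout 2 rose and 1 fell, with Plod2 from a mean of 73.6 to 205 CPM (log2 change 1.48, adjusted p = 0.0131) and the transferrin receptor Tfrc from a mean of 45.3 to 16.7 CPM (log2 change -1.44, adjusted p = 0.0268). There the thioredoxin-binding protein Txnip, a glucose-responsive brake on glucose uptake, rose from a mean of 109 to 408 CPM (log2 change 1.90, adjusted p = 0.00625). Pygm rose from a mean of 6.69 to 39.4 CPM (log2 change 2.56, adjusted p = 0.0116) with Arid1a knockout, where the pyrophosphorylase Ugp2 fell from a mean of 245 to 122 CPM (adjusted p = 0.00913), and Pygm rose from a mean of 1.61 to 8.94 CPM (log2 change 2.48, adjusted p = 0.0164) with Smarcb1 knockout.

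Whether the drug response differed between a knockout and Braf was tested as a difference of log2 fold changes. For Arid1a knockout, edgeR called 0 of the 31 genes (0% of all genes were called), with 4 of the 31 at an unadjusted p under 0.05 and 1 called by DESeq2. The difference was -0.19 for Slc2a1 (SE 0.49), 0.55 for Ldha (SE 0.33), 0.21 for Hk2 (SE 0.74) and 0.49 for Gapdh (SE 0.41). That of Fbp2 was -3.28 (SE 0.62, adjusted p = 0.106). A missed threshold does not show that the responses were alike.

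For Arid2 knockout the log2 change with CKI was higher than in Braf for 1 gene of the 31 and lower for 1 (6.45% called, against 8.66% of all genes). The Fbp2 response was larger by 2.37 on the log2 scale (SE 0.70, adjusted p = 0.0393). For Slc16a1, which stood at 46.8, 22.1 and 49.2 CPM with vehicle and 76.98, 64.3 and 47.8 CPM with CKI in Braf, the difference was -2.65 (SE 0.59, adjusted p = 0.0144). It was higher with CKI in Braf on average (log2 change 0.68 with SE 0.37, adjusted p = 0.226), without passing, and lower in the knockout. The differences for Slc2a1, Ldha, Hk2 and Gapdh were 0.52, 0.61, -0.81 and 0.81 (SE 0.55, 0.36, 0.83 and 0.46), none called. When 1 of the 10 libraries was left out, Slc16a1 passed in 8 fits and was lost without either CKI library of the knockout, while Fbp2 passed in 1 fit only, the one without Braf vehicle library 2.

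For Smarcb1 knockout 1 of the 31 genes differed (3.23%, against 0.305% of all genes). Fbp2 was at 0.267, 0.686 and 0.770 CPM with vehicle and 0.639, 1.14 and 0.640 CPM with CKI in the knockout, so that its range with CKI overlapped that with vehicle. The response was smaller than in Braf by a log2 difference of -3.57 (SE 0.66, adjusted p = 0.0170). The call was lost without knockout vehicle library 2 or CKI library 1 and kept in the other 10 fits. For Slc2a1 the difference was -0.49 (SE 0.49), for Ldha 0.73 (SE 0.33), for Hk2 0.27 (SE 0.75) and for Gapdh 0.22 (SE 0.41), none called. These 3 tests share the Braf libraries.

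The knockouts were next compared with Braf under vehicle, which again share the Braf vehicle libraries. With Arid1a knockout, Slc2a1, Slc2a3, Gapdh, Pgk1, Eno1 and Pkm2 were lower and Aldoc, Pdk1, Fbp1 and Fbp2 higher than in Braf. Of the 31 genes, 4 rose and 6 fell (32.3% called, against 9.56% of all genes), with a median of -0.42 against 0.00. Slc2a1 was at 219, 253 and 201 CPM, against 571, 570.4 and 710.4 CPM in Braf. Its highest knockout library was below the lowest of Braf (log2 change -1.46 with SE 0.35, adjusted p = 0.0117), and the wild-type range was 214 to 222 CPM. Slc2a3, the high-affinity transporter GLUT3, was at 1.62, 4.07 and 4.85 CPM, against 12.4, 26.98 and 30.1 CPM (log2 change -2.72 with SE 0.60, adjusted p = 0.00670). Here all 3 knockout libraries were far below Braf.

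Pgk1 was at 49.1, 47.4 and 58.5 CPM with Arid1a knockout, against 134, 92.02 and 117 CPM in Braf (log2 change -1.15 with SE 0.25, adjusted p = 0.00711). Pkm2 was at 901, 1122 and 1354 CPM, against 3103, 1685 and 2473 CPM (log2 change -1.10 with SE 0.32, adjusted p = 0.0336). Both were lower in 3 of 3 libraries. Gapdh, at 448, 566 and 569 CPM against 1252, 844 and 1090.0 CPM (log2 change -1.01 with SE 0.29, adjusted p = 0.0322), and Eno1, at 532, 445 and 599.5 CPM against 1107, 849 and 1052 CPM (log2 change -0.93 with SE 0.29, adjusted p = 0.0436), fell likewise without overlap. The Eno1 call was lost in 6 of 6 fits with 1 library left out (adjusted p = 0.0522 to 0.142). Aldoc, an aldolase known from brain, was the glycolytic enzyme that rose, at 81.7, 70.4 and 79.1 CPM against 30.003, 36.5 and 28.5 CPM (log2 change 1.28 with SE 0.35, adjusted p = 0.0225). Pdk1 was at 16.8, 13.9 and 18.2 CPM against 3.01, 4.41 and 6.68 CPM (log2 change 1.79 with SE 0.53, adjusted p = 0.0348). Every knockout library was above Braf for these 2 genes. Of the 6 fits with 1 library left out, Gapdh, Pkm2 and Pdk1 each passed in 1 only, and Aldoc in 2.

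Fbp1 showed the largest difference: it was at 414, 241 and 355 CPM with Arid1a knockout and at 9.68, 12.9 and 12.4 CPM in Braf (log2 change 4.85 with SE 0.91, adjusted p = 0.00201), and also above the wild-type range of 45.5 to 55.4 CPM. Fbp2 was at 5.96, 7.25 and 9.76 CPM against 1.22, 2.13 and 2.16 CPM (log2 change 2.05 with SE 0.45, adjusted p = 0.00670), above Braf and below the wild-type range of 12.9 to 17.9 CPM. Ldha was lower in all 3 libraries, at 1619, 1228 and 1450.0 CPM against 2054, 1744 and 2151 CPM, and did not pass (log2 change -0.47 with SE 0.23, adjusted p = 0.211). Hk2 overlapped, at 13.9, 16.9 and 20.7 CPM against 6.52, 22.9 and 27.2 CPM (log2 change -0.14 with SE 0.52, adjusted p = 0.906). The number called with 1 library left out was 5 without knockout library 1 or 3, 6 without Braf library 5 or knockout library 2, 7 without Braf library 2 and 8 without Braf library 4, and Slc2a3, Pgk1, Fbp1 and Fbp2 passed in every fit. Of 10 fibroblast markers 8 fell (1129 to 24165 CPM in Braf and 379 to 929 CPM in the knockout), as did 7 of 10 endothelial markers (40.1 to 759.8 and 51.1 to 69.8 CPM), and their part was not tested.

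In genes beyond the 31, Arid1a knockout lowered the bisphosphoglycerate mutase Bpgm from a mean of 59.3 to 20.9 CPM (log2 change -1.50, adjusted p = 0.00274), 1 of 14 tested isozymes and transporters, and the phosphoglucomutase Pgm1 from a mean of 74.1 to 29.01 CPM (log2 change -1.35, adjusted p = 0.00467), while Ugp2 rose from a mean of 113 to 245 CPM (log2 change 1.11, adjusted p = 0.002002). The prolyl hydroxylases Egln1, from a mean of 14.4 to 7.48 CPM (log2 change -0.95, adjusted p = 0.0403), and P4ha1, from a mean of 224 to 89.1 CPM (log2 change -1.33, adjusted p = 0.0136), fell, each the only call in its hypoxia list of 9 and 21 genes. Of all genes, 9.56% were called in this comparison. Of 8 glucose-sensing and Myc factors Mycn, from a mean of 2.12 to 24.7 CPM (log2 change 3.54, adjusted p = 0.00494), and Myc, from a mean of 134 to 368 CPM (log2 change 1.45, adjusted p = 0.0441), rose.

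With Arid2 knockout 1 of the 31 genes differed from Braf under vehicle (3.23%, against 3.61% of all genes), with a median of -0.40 against -0.04. Eno2 was at 3.24 and 1.35 CPM in the 2 knockout libraries and 14.5, 10.3 and 13.1 CPM in Braf (log2 change -2.45 with SE 0.48, adjusted p = 0.0123). Its level was below every library without Arid2 loss (5.82 to 8.82 CPM in Braf Arid1a knockout vehicle), and stayed at 1.54 and 1.75 CPM with CKI. The call was lost without knockout library 4 and when only these 2 groups were fitted, where 1 gene of all those tested passed. Slc2a1 stood at 542 and 487 CPM against 571, 570.4 and 710.4 CPM (log2 change -0.26 with SE 0.39, adjusted p = 0.738) and Ldha at 1632 and 1842 CPM against 2054, 1744 and 2151 CPM (log2 change -0.19 with SE 0.26, adjusted p = 0.709). Hk2, at 30.98 and 12.5 CPM against 6.52, 22.9 and 27.2 CPM, overlapped (log2 change 0.20 with SE 0.58, adjusted p = 0.880). Both knockout libraries were below Braf for Gapdh, which did not pass, at 538 and 770.3 CPM against 1252, 844 and 1090.0 CPM (log2 change -0.70 with SE 0.33, adjusted p = 0.218). Outside the 31, the facilitative transporter Slc2a10 fell from a mean of 16.8 to 2.64 CPM (log2 change -2.67, adjusted p = 0.0450), Stc2 fell from a mean of 3.13 to 0.680 CPM (log2 change -2.20, adjusted p = 0.0253), Plod2 rose from a mean of 27.8 to 80.5 CPM (log2 change 1.53, adjusted p = 0.0253) and Mycn rose from a mean of 2.12 to 22.1 CPM (log2 change 3.38, adjusted p = 0.0253). Slc2a10 is from the list of 14 tested isozymes and transporters, Stc2 and Plod2 from the 21 other hypoxia targets. Mycn is from the 8 glucose-sensing and Myc factors. These calls are to be read beside the 3.61% of all genes called. Of 10 fibroblast markers 4 fell (420.2 to 873 CPM in the knockout), and their part was not tested.

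Smarcb1 knockout gave the broadest difference from Braf under vehicle, in these genes and in the genome: 2 of the 31 rose and 12 fell (45.2% called, against 28.6% of all genes), with a median of -0.76 against 0.03. The transporters split. Slc2a1 was at 284, 98.5 and 172 CPM in the knockout and 571, 570.4 and 710.4 CPM in Braf, lower without overlap (log2 change -1.74 with SE 0.35, adjusted p = 0.00110). Slc2a3 was at 105, 150.01 and 28.01 CPM and 12.4, 26.98 and 30.1 CPM (log2 change 2.03 with SE 0.58, adjusted p = 0.0117), higher on average although knockout replicate 3 lay within the Braf range. The count ratio of Slc2a3 to Slc2a1 within a library was 0.163 to 1.52 in the knockout with vehicle and 0.363 to 1.24 with CKI, and 0.0218 to 0.0473 in Braf vehicle. It was 0.0992 to 0.147 in wild type and 0.0920 to 0.219 in Arid1a KO, which overlapped the range of the knockout with vehicle. Slc16a1 was at 55.1, 186 and 92.2 CPM against 46.8, 22.1 and 49.2 CPM (means 111 and 39.4 CPM, SE of the log2 change 0.37, adjusted p = 0.00491), higher in 3 of 3 libraries with replicate 2 far above the others.

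Of the 15 glycolytic enzymes 4 fell and the remainder did not pass. The hexokinases Hk1, at 163, 107 and 48.6 CPM against 216, 222 and 319 CPM (log2 change -1.25 with SE 0.41, adjusted p = 0.0245), and Hk2, at 4.54, 5.36 and 4.29 CPM against 6.52, 22.9 and 27.2 CPM (means 4.73 and 18.9 CPM, SE of the log2 change 0.55, adjusted p = 0.00916), were lower in every knockout library. Aldoa, the main muscle and tumour aldolase, was at 1268, 659.7 and 724 CPM against 2689, 1646 and 2066 CPM (log2 change -1.27 with SE 0.32, adjusted p = 0.00539). Aldoc was at 7.89, 5.56 and 4.29 CPM against 30.003, 36.5 and 28.5 CPM (log2 change -2.42 with SE 0.36, adjusted p = 6.77e-05), and again no library overlapped. Ldhb was at 101, 137 and 118 CPM against 344, 219.7 and 236 CPM (log2 change -1.17 with SE 0.31, adjusted p = 0.00727), while Ldha, at 2836, 1443 and 1575 CPM against 2054, 1744 and 2151 CPM, was close to level on average (log2 change -0.02 with SE 0.23, adjusted p = 0.953). The Ldha to Ldhb count ratio was accordingly 10.6 to 28.1, above the 5.96 to 9.10 of Braf. Gapdh did not pass, at 936, 588 and 545 CPM against 1252, 844 and 1090.0 CPM (log2 change -0.62 with SE 0.29, adjusted p = 0.112).

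Pfkfb3, which makes fructose-2,6-bisphosphate, the strongest activator of phosphofructokinase, was at 21.7, 28.1 and 18.4 CPM with Smarcb1 knockout against 76.001, 177 and 148 CPM in Braf (log2 change -2.56 with SE 0.35, adjusted p = 3.17e-05). The highest knockout library was below 122 to 199.9 CPM, the range with Arid1a knockout, as well as below Braf. Fbp1 was at 0, 1.57 and 4.58 CPM against 9.68, 12.9 and 12.4 CPM (log2 change -2.52 with SE 0.84, adjusted p = 0.0277), with replicate 1 at 0 counts. Fbp2 was at 0.267, 0.686 and 0.770 CPM against 1.22, 2.13 and 2.16 CPM (log2 change -1.69 with SE 0.47, adjusted p = 0.0107). In the hypoxia group Ndrg1 was at 7.68, 40.4 and 49.7 CPM against 515, 389.9 and 466 CPM (log2 change -3.81 with SE 0.51, adjusted p = 2.87e-05), the largest fall of the 31 genes, with replicate 1 lowest. Bnip3, a mitochondrial protein of mitophagy, was at 86.8, 19.4 and 33.8 CPM against 144, 75.7 and 121 CPM (log2 change -1.28 with SE 0.43, adjusted p = 0.0287). Ankrd37 was at 5.01, 1.63 and 2.60 CPM against 14.5, 4.16 and 14.5 CPM (log2 change -1.84 with SE 0.56, adjusted p = 0.0174). For these 2 genes knockout replicate 1 overlapped Braf.

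**Figure D5:**
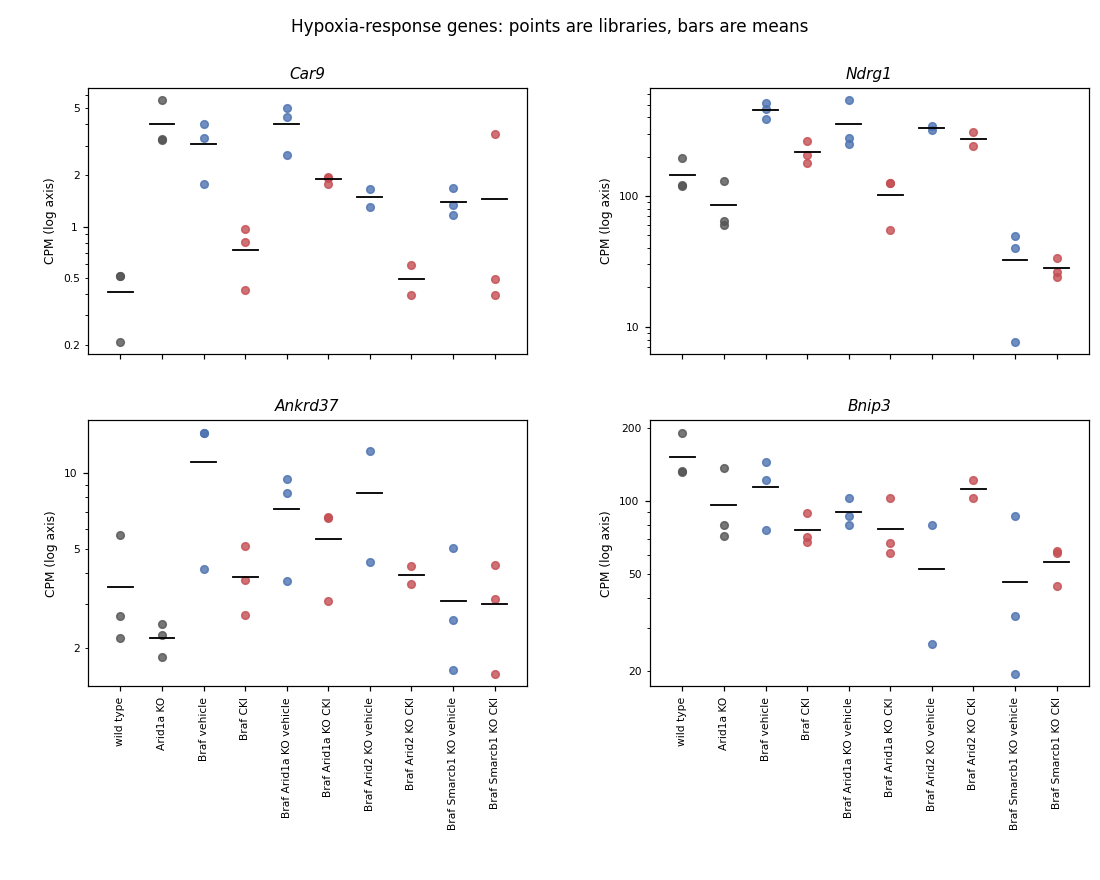
Car9, Ndrg1, Ankrd37 and Bnip3 in CPM (log axis) by group, points as libraries and bars as means. Ndrg1 is at 7.68 to 49.7 CPM in Braf Smarcb1 knockout vehicle and 24.2 to 33.8 CPM with CKI, below wild type (119.6 to 195 CPM) and Braf vehicle (389.9 to 515 CPM).

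In the lists of related genes, to be read beside the 28.6% of all genes called, 2736 up and 2697 down, Smarcb1 knockout gave calls in both directions. Of 14 tested genes of gluconeogenesis and glycogen 1 rose and 9 fell, led by the carboxykinase Pck1, from a mean of 1.86 to 0.0561 CPM (log2 change -4.97, adjusted p = 0.0319), the liver glycogen phosphorylase Pygl, from a mean of 231 to 28.5 CPM (log2 change -3.02, adjusted p = 0.000115), and Pygm, from a mean of 8.75 to 1.61 CPM (log2 change -2.45, adjusted p = 0.00288). Of 14 tested other isozymes and transporters 1 rose and 6 fell. Slc2a10 went from a mean of 16.8 to 1.66 CPM (log2 change -3.35, adjusted p = 0.000714) and Hkdc1 from a mean of 1.26 to 0.128 CPM (log2 change -3.29, adjusted p = 0.0141). Of 21 other hypoxia targets 3 rose and 6 fell, with the lipase inhibitor Angptl4 from a mean of 18.9 to 177 CPM (log2 change 3.23, adjusted p = 0.00134), the prolyl hydroxylase P4ha2 from a mean of 195 to 30.9 CPM (log2 change -2.66, adjusted p = 3.36e-06) and Bhlhe40 from a mean of 1383 to 421 CPM (log2 change -1.72, adjusted p = 0.00196). Of 8 pentose phosphate genes 1 rose and 2 fell: Pgls, from a mean of 5.74 to 46.2 CPM (log2 change 3.01, adjusted p = 0.00509), the entry enzyme G6pdx, from a mean of 276 to 92.3 CPM (log2 change -1.58, adjusted p = 0.000936), and the transaldolase Taldo1, from a mean of 627 to 342 CPM (log2 change -0.88, adjusted p = 0.0464). Of 12 genes for pyruvate entry 2 fell, Pdk4, from a mean of 347 to 44.3 CPM (log2 change -2.97, adjusted p = 0.000913), and Pdk2, from a mean of 52.1 to 22.7 CPM (log2 change -1.20, adjusted p = 0.0170). Epas1 was the call among 9 hypoxia factors, from a mean of 46.8 to 4.19 CPM (log2 change -3.48, adjusted p = 0.000359). Of 8 glucose-sensing and Myc factors 1 rose and 2 fell: Txnip, from a mean of 1001 to 109 CPM (log2 change -3.19, adjusted p = 1.29e-05), the partner Mlxip, from a mean of 25.1 to 9.76 CPM (log2 change -1.36, adjusted p = 0.0147), and Myc, from a mean of 134 to 314 CPM (log2 change 1.22, adjusted p = 0.0442).

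Beside these changes, 9 of 10 cycling-cell markers rose with Smarcb1 knockout (53.6 to 181 CPM in Braf and 345 to 1082 CPM in the knockout), 4 of 7 leukocyte markers fell (773 to 1389 and 117 to 362 CPM), 7 of 10 endothelial markers fell (40.1 to 759.8 and 85.1 to 141 CPM), and 6 of 10 fibroblast markers fell (1129 to 24165 and 1623 to 2845 CPM). The part of these cells was not tested. Leukocyte levels did not overlap between the groups, so a covariate fit cannot separate them from genotype or from preparation, which may go with it. With the leukocyte level as covariate 7 of the 14 genes passed, among them Ndrg1 (-3.57 with adjusted p = 0.000941), Pfkfb3 (-2.43 with adjusted p = 0.00320) and Slc2a1 (-2.32 with adjusted p = 0.00282), but not Hk2 (-1.92 with adjusted p = 0.104). With 1 library left out, the number called was 8 without knockout library 2, 12 without Braf library 2 or 5, 13 without Braf library 4 or knockout library 3 and 17 without knockout library 1, and Slc2a1, Hk2, Aldoa, Aldoc, Pfkfb3 and Ndrg1 passed in each of the 6 fits.

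Untreated Arid1a knockout thyroids, which carry no Braf mutation, were compared with wild type, where preparation may go with genotype, as set out above. Hk2, Pfkfb4 and Car9 rose and 5 genes of glucose uptake and glycolysis fell (25.8% of the 31 called, against 18.6% of all genes), with a median of -0.35 against -0.01. Hk2 was at 17.3, 11.8 and 25.1 CPM, against 2.13, 3.60 and 4.90 CPM in wild type (log2 change 2.35 with SE 0.55, adjusted p = 0.00647). Pfkfb4, a relative of Pfkfb3, was at 40.9, 34.8 and 51.5 CPM against 12.8, 10.1 and 14.05 CPM (log2 change 1.79 with SE 0.37, adjusted p = 0.00337). Car9 was at 3.22, 3.26 and 5.56 CPM against 0.209, 0.515 and 0.512 CPM (log2 change 3.27 with SE 0.66, adjusted p = 0.00313). All 3 genes were higher in 3 of 3 libraries, as the plot of hypoxia-response genes shows for Car9.

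Slc2a1 was lower in Arid1a KO, at 70.3, 151 and 80.7 CPM against 214, 214 and 222 CPM (log2 change -1.10 with SE 0.35, adjusted p = 0.0304). Hk1 was at 57.4, 157 and 51.3 CPM against 176, 243 and 205 CPM (log2 change -1.23 with SE 0.41, adjusted p = 0.0368), and Pfkl, the liver phosphofructokinase, at 52.7, 161 and 61.1 CPM against 230.4, 277 and 231 CPM (log2 change -1.42 with SE 0.44, adjusted p = 0.0258). In these 3 genes Arid1a KO replicate 2 stood nearest to wild type. Pgam1, a phosphoglycerate mutase, was at 9.10, 15.4 and 6.44 CPM against 16.7, 33.3 and 32.96 CPM (log2 change -1.42 with SE 0.37, adjusted p = 0.0103). Eno2 was at 8.61, 15.96 and 14.1 CPM against 20.4, 30.1 and 36.7 CPM (log2 change -1.17 with SE 0.39, adjusted p = 0.0386). Neither overlapped. Ldha, at 1129, 1283 and 1383 CPM against 1287, 895 and 1068 CPM (log2 change 0.22 with SE 0.23, adjusted p = 0.544), and Gapdh, at 433, 533 and 719 CPM against 724, 465 and 556 CPM (log2 change -0.05 with SE 0.29, adjusted p = 0.937), overlapped and did not pass. Outside the 31, the pyruvate carrier subunit Brp44 fell from a mean of 55.04 to 10.7 CPM (log2 change -2.36, adjusted p = 0.00615), as did Pdk2, from a mean of 162 to 49.4 CPM (log2 change -1.71, adjusted p = 0.00418), and Pdk4, from a mean of 152 to 48.6 CPM (log2 change -1.64, adjusted p = 0.0444), 3 of the 6 falls among 12 genes for pyruvate entry. Vhl, from a mean of 18.3 to 4.34 CPM (log2 change -2.08, adjusted p = 0.00345), and Egln2, from a mean of 72.5 to 17.5 CPM (log2 change -2.05, adjusted p = 0.00408), fell, the 2 calls among 9 hypoxia factors and regulators. Of all genes, 18.6% were called in this comparison. Lox, from the list of 21 other hypoxia targets, rose from a mean of 2.25 to 18.7 CPM (log2 change 3.05, adjusted p = 0.0121). The muscle isozymes Pgam2, from a mean of 3.52 to 12.5 CPM (log2 change 1.83, adjusted p = 0.0187), and Eno3, from a mean of 8.27 to 24.4 CPM (log2 change 1.56, adjusted p = 0.00990), rose. In the list of gluconeogenesis and glycogen, with 14 tested genes, 3 glycogen genes fell. Among them were Pygm, from a mean of 402 to 138 CPM (log2 change -1.54, adjusted p = 0.0459), and the glycogen synthase Gys1, from a mean of 59.5 to 23.8 CPM (log2 change -1.32, adjusted p = 0.00947).

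Markers of other cells moved in both directions in the libraries labelled Arid1a KO. Parathyroid markers fell in 4 of 4 (summed levels 136 to 629 CPM, and 4214 to 14843 CPM in wild type), and C cell markers in 2 of 6. Leukocyte markers rose in 7 of 7 (summed levels 2203 to 3853 CPM, and 349 to 582 CPM in wild type), fibroblast markers in 6 of 10 (10206 to 14260.4 and 816 to 1529.7 CPM), and skeletal muscle markers in 2 of 13 tested (161 to 437 and 15.5 to 247 CPM). With the leukocyte level as covariate none of the 8 calls remained, and 3 genes of all those tested passed. The log2 fold change of Hk2 was then 2.26 with adjusted p = 0.319, that of Car9 3.07 with adjusted p = 0.277 and that of Slc2a1 -0.39 with adjusted p = 0.795. As the leukocyte levels did not overlap, this fit cannot separate leukocytes from genotype or preparation. With the skeletal muscle level as covariate 3 passed, Car9, Pfkfb4 and Pgam1. With 1 library left out, the number called was 3 without Arid1a KO library 1 or 3 or wild-type library 2, 5 without wild-type library 3, 6 without wild-type library 1 and 12 without Arid1a KO library 2, and Hk2, Pfkfb4 and Car9 passed each time.

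Across the 10 groups 4 of the 31 genes passed no comparison: the glucose phosphate isomerase Gpi1, the platelet phosphofructokinase Pfkp, the triose phosphate isomerase Tpi1 and Egln3, a hypoxia-induced prolyl hydroxylase. Gpi1 was at 170.4 to 337 CPM in Arid1a KO, 344 to 394 CPM in wild type and 338 to 662 CPM in Braf Smarcb1 knockout CKI. Tpi1 was at 424 to 609 CPM in Braf Arid1a knockout vehicle and 667 to 1186 CPM in Braf vehicle. Pfkp stood at 208 to 318 CPM in Arid1a KO, 136 to 159.8 CPM in wild type and 35.1 to 45.3 CPM in Braf Arid1a knockout CKI, without overlap between these 3 groups, whose extremes were not among the comparisons made. Egln3 spread widely within Braf Arid1a knockout, at 1.43 to 27.6 CPM with vehicle and 4.54 to 30.2 CPM with CKI. It was at 0.936 to 3.33 CPM in Arid1a KO without Braf.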

How the data were processed

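Thyroid RNA-seq was analysed from a table of raw counts per gene, which the authors deposited for 28 libraries of the 30 samples labelled. Per the submitters' processing notes, the tools were STAR 2.4, HTSeq 0.6.1 and DESeq2 and the build was mm9. The labels' protocols name a TruSeq RNA kit, and strand use in counting is not given in the sources used here. Braf Arid2 vehicle 1 and CKI 2 were not analysed here.

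The 31 members and all gene lists were chosen with earlier results of these data known. One edgeR 4.0.16 quasi-likelihood fit (R 4.3.3) held all libraries with a term per group, TMM factors (0.723 to 1.249) and filterByExpr, with 18 residual degrees of freedom, and p-values were adjusted over 19016 genes at a threshold of 0.05. Every member is described. Up to 12 called members per comparison are named, otherwise the 6 largest changes each way, and Slc2a1, Ldha, Hk2 and Gapdh always. Other lists give up to 3 called genes of largest change. Alternatives were RLE factors, no filter, DESeq2 1.42.0, covariates, a replicate block, the compared groups alone and each library left out. The fit was also run on simulated counts for CKI against vehicle in Braf, with no other differences between groups. That run does not cover the other comparisons or differences in cell content.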

Additional observations from a re-analysis of the deposited data

Results flagged for a closer look

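The CKI response of 2 genes differed between a knockout and Braf alone by the test of the difference itself, with edgeR. Slc16a1 differed by a log2 change of -2.65 between Braf Arid2 knockout and Braf (adjusted p = 0.0144): it was lower with CKI in 2 of 2 knockout libraries and higher in 2 of 3 Braf libraries than every Braf vehicle library. Fbp2 differed by 2.37 in the same comparison (adjusted p = 0.0393), higher with CKI in all libraries of both genotypes, and by -3.57 between Braf Smarcb1 knockout and Braf (adjusted p = 0.0170). Each arm of the Arid2 knockout held 2 libraries, and with 1 library left out its Fbp2 difference ran from 1.79 to 2.76. In the Smarcb1 knockout Fbp2 totalled only 51 counts with vehicle and 89 with CKI. The calls lost with 1 library left out are given above.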

How the results depend on the processing

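Over the 64 calls of a gene in a comparison, 14 held under every alternative, 50 were lost under at least 1, and the direction of the log2 change reversed in 0 of 839 refitted values. RLE size factors in place of TMM moved no count of calls by more than 1.5 times, and omitting the filter on low counts moved only the all-gene count of the Arid1a response difference, from 0 to 1. The median of all genes moved by less than 0.1 (log2) under either rescaling. Counts below are of the 31 genes, then of all genes, for those that moved by more than 1.5 times from the counts given first. These were 8 and 2466 for CKI in Braf, 1 and 858 for CKI in Braf Arid1a knockout, 3 and 640 for CKI in Braf Arid2 knockout, 3 and 732 for CKI in Braf Smarcb1 knockout, 10 and 1818 for Arid1a knockout against Braf, 1 and 686 for Arid2 knockout against Braf, 14 and 5433 for Smarcb1 knockout against Braf, 13 and 3795 for Braf against wild type, 8 and 3538 for Arid1a KO against wild type, 0 and 0 for the Arid1a response difference, 2 and 1647 for the Arid2 response difference and 1 and 58 for the Smarcb1 response difference.

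DESeq2 gave 13 and 3917 for CKI in Braf, 3 and 1854 for CKI in Braf Arid1a knockout, 1806 of all genes for CKI in Braf Arid2 knockout, 7 and 1621 for CKI in Braf Smarcb1 knockout, 2910 of all genes for Arid1a knockout against Braf, 2120 of all genes for Arid2 knockout against Braf, 1 and 172 for the Arid1a response difference, 5 and 2949 for the Arid2 response difference and 268 of all genes for the Smarcb1 response difference. With the leukocyte level as covariate the counts were 2 and 94 for CKI in Braf, 0 and 330 for CKI in Braf Arid1a knockout, 120 of all genes for Arid2 knockout against Braf, 7 and 1918 for Smarcb1 knockout against Braf, 8 of the 31 for Braf against wild type, 0 and 3 for Arid1a KO against wild type, 1 and 3 for the Arid1a response difference and 10 of all genes for the Smarcb1 response difference. With the skeletal muscle level they were 3 and 1577 for Arid1a KO against wild type and 1 of all genes for the Arid1a response difference. Fitting only the groups compared gave 4 and 1367 for CKI in Braf, 0 and 527 for CKI in Braf Arid1a knockout, 1651 of all genes for CKI in Braf Arid2 knockout, 0 and 2 for CKI in Braf Smarcb1 knockout, 829 of all genes for Arid1a knockout against Braf, 0 and 1 for Arid2 knockout against Braf, 5 and 2335 for Smarcb1 knockout against Braf, 4 and 2333 for Arid1a KO against wild type and 0 and 5 for the Smarcb1 response difference. The cause of these differences was not tested, except that fits on fewer groups have fewer residual degrees of freedom. The share of higher calls moved by more than 10 points for Arid1a KO against wild type (1474 of 2333 in the 2 groups alone, 1301 of 3538 otherwise) and for the Arid2 response difference (973 of 2949 by DESeq2 and 81 of 1470 in its groups alone, 280 of 1647 otherwise).

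No label says whether same-numbered libraries share more than a number. Over 14 pairs of such libraries from groups compared, the correlation of their deviations from the group means ran from -0.38 to 0.15, with 1 above 0.1. With so few libraries per group, and no differently numbered pairs beside them, these values do not show whether such libraries shared a batch. With a replicate block the counts were 0 and 177 for CKI in Braf Arid1a knockout, 1 of the 31 for CKI in Braf Arid2 knockout, 1 and 339 for CKI in Braf Smarcb1 knockout, 4 and 1095 for Arid1a knockout against Braf, 7 of the 31 for Braf against wild type, 1 of the 31 for the Arid2 response difference and 0 and 31 for the Smarcb1 response difference. Other counts with the block stayed within 1.5 times, for example 6 of the 31 genes for CKI in Braf.

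With 1 library left out the lowest and highest counts were 2 to 7 and 726 to 2453 of all genes for CKI in Braf, 0 to 2 and 256 to 756 of all genes for CKI in Braf Arid1a knockout, 1 to 1 and 65 to 349 of all genes for CKI in Braf Arid2 knockout, 1 to 3 and 233 to 923 of all genes for CKI in Braf Smarcb1 knockout, 5 to 8 and 737 to 1637 of all genes for Arid1a knockout against Braf, 0 to 1 and 38 to 874 of all genes for Arid2 knockout against Braf, 8 to 17 for Smarcb1 knockout against Braf, 6 to 14 and 2359 to 3809 of all genes for Braf against wild type, 3 to 12 and 1115 to 4854 of all genes for Arid1a KO against wild type, 0 to 2 and 0 to 275 of all genes for the Arid1a response difference, 0 to 2 and 0 to 2050 of all genes for the Arid2 response difference and 0 to 1 and 19 to 77 of all genes for the Smarcb1 response difference. Depth limits the low genes: Car9, Fbp1 and Fbp2 were under 5 CPM in several groups, where few counts set the value.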

Other observations

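Eno2, the neuronal enolase, was at 31.5, 26.995 and 13.2 CPM in Braf Smarcb1 knockout vehicle and 62.7, 45.6 and 31.2 CPM with CKI, a difference that did not pass (log2 change 0.96 with SE 0.39, adjusted p = 0.183). All other Braf groups lay lower, at 10.3 to 14.5 CPM in Braf vehicle, 6.41 to 9.95 CPM in Braf CKI, 5.82 to 8.82 and 5.88 to 13.05 CPM in Braf Arid1a knockout and 1.35 to 3.24 and 1.54 to 1.75 CPM in Braf Arid2 knockout, each pair giving vehicle then CKI. Only the highest Braf vehicle library exceeded the lowest vehicle library of the Smarcb1 knockout. Wild type, at 20.4 to 36.7 CPM, overlapped the vehicle range of the Smarcb1 knockout, and Arid1a KO was at 8.61 to 15.96 CPM. Eno2 was not called for Smarcb1 knockout against Braf under vehicle. Pfkfb3 was lower in both Braf Smarcb1 knockout groups, at 18.4 to 28.1 CPM with vehicle and 34.1 to 42.5 CPM with CKI, than in the other 22 libraries, of which Braf vehicle held the lowest (76.001 to 177 CPM). These genes were picked after their values were seen, and no test was made of the pattern across groups.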
